A study of Rattus norvegicus with 6 samples.

Results

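Nfe2l2, its inhibitor gene Keap1 and 8 genes that Nfe2l2 is known to activate (Slc7a11, Gclc, Gclm, Txnrd1, Srxn1, Hmox1, Nqo1 and Osgin1) were examined in the neuroretina, 10 genes chosen by symbol out of 28358 in the tables. The animals were male Goto-Kakizaki (GK) rats aged 14 months, a strain that becomes diabetic without obesity, and no non-diabetic strain was among the samples. The spironolactone group (3 samples) had received 5 µL of microspheres of the degradable polymer PLGA in the vitreous, loaded with 6.2 µg of spironolactone, a drug that blocks the mineralocorticoid receptor. The non-loaded group (3 samples) had received PLGA microspheres without drug, and retinas of both groups were dissected 2 months later and read by stranded mRNA sequencing. The labels do not name the animal behind each sample, so the spread that the p-values rest on may be technical in part.

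Nfe2l2 encodes NRF2, a transcription factor that switches on genes of antioxidant and detoxifying defence. In unstressed cells KEAP1 holds NRF2 in the cytoplasm and delivers it to a CUL3 ubiquitin ligase for degradation. Oxidants and electrophiles modify KEAP1, and NRF2 then accumulates, enters the nucleus and binds antioxidant response elements together with small MAF proteins. NRF2 is therefore controlled largely at the level of the protein, which RNA sequencing does not measure. In the retina, where light, high oxygen use and diabetes impose oxidative load, this pathway is studied as a defence of neurons, glia and vessels.

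Of the 10 genes, 9 had enough counts to be tested, and Nfe2l2 was the only one called: it rose 1.52-fold with spironolactone (95% interval 1.285 to 1.80). Keap1 and the 7 tested target genes were not called in either direction (edgeR quasi-likelihood test, adjusted p between 0.296 and 0.991; 1 of these 8, Txnrd1, had an unadjusted p below 0.05). DESeq2 and limma-voom likewise called Nfe2l2 alone among the 9. DESeq2 gave no adjusted p for Gclm, Srxn1, Hmox1 and Nqo1, so it could not call these genes. Their unadjusted DESeq2 p ran from 0.19 to 0.86. Over all 13242 tested genes 2.63% were called. The median log2 fold change of the 9 was −0.06, beside −0.0026 over all tested genes.

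The libraries held 9996198 to 12589466 expected counts each. No library was a copy of another, since chi-square values between pairs of libraries were 4 to 16 per gene. By this measure spironolactone replicate 1 lay nearer to non-loaded replicate 3 (4.72) than to spironolactone replicate 3 (7.13). Non-loaded replicate 3 in turn lay nearer to spironolactone replicate 1 than to non-loaded replicates 1 (5.61) and 2 (5.04). The retinal identity of the samples was plain in the rod marker genes, which summed to 56055 to 61893 TPM (values scaled for gene length and library total) in spironolactone libraries and to 67825 to 79609 TPM in non-loaded libraries. All 10 Müller glia markers were present, with sums of 6659 to 6748 TPM in spironolactone libraries and 6547 to 7134 TPM in non-loaded libraries. Lens markers summed to only 8.23 to 11.6 TPM in spironolactone libraries and 8.71 to 12.5 TPM in non-loaded libraries, with Crygc, Mip and Lim2 at 0 in all 6.

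The Nfe2l2 level was higher in each spironolactone library than in any non-loaded library. It measured 51.9, 58.6 and 60.0 CPM in spironolactone libraries, against 31.9, 33.4 and 46.4 CPM in non-loaded libraries (CPM, read counts relative to the TMM-adjusted total of their library). The underlying counts were 556, 734 and 664 with spironolactone and 315, 383 and 564 without it. Non-loaded replicate 3 lay well above the other non-loaded libraries, so that the non-loaded group spread 1.46-fold between its lowest and highest library, against 1.16-fold in the spironolactone group. The mean was 56.8 ± 4.32 CPM with spironolactone and 37.2 ± 7.97 CPM with non-loaded microspheres (SD, n = 3 each), a log2 fold change of 0.60 ± 0.12 (SE, adjusted p = 0.00785). By p it ranked 115th among the tested genes.

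The call on Nfe2l2 depended on which libraries were used. Its log2 fold change stayed between 0.51 and 0.80 when any one library was left out. The adjusted p was 0.0786 without spironolactone replicate 2, 0.0613 without replicate 1 of the non-loaded group and 0.0507 without replicate 2 of that group. It was 0.000138 without non-loaded replicate 3, whose level was nearest to the spironolactone group. On log2(TPM + 1) with limma the change was 0.63 and the adjusted p 0.0875. Titles of the samples end in 8, 10 and 11 for spironolactone and in 2, 3 and 4 for non-loaded microspheres. With that number in the model the Nfe2l2 log2 fold change was −0.25 (adjusted p = 0.9999), and the number and the treatment cannot be told apart in these samples.

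**Figure D1:**
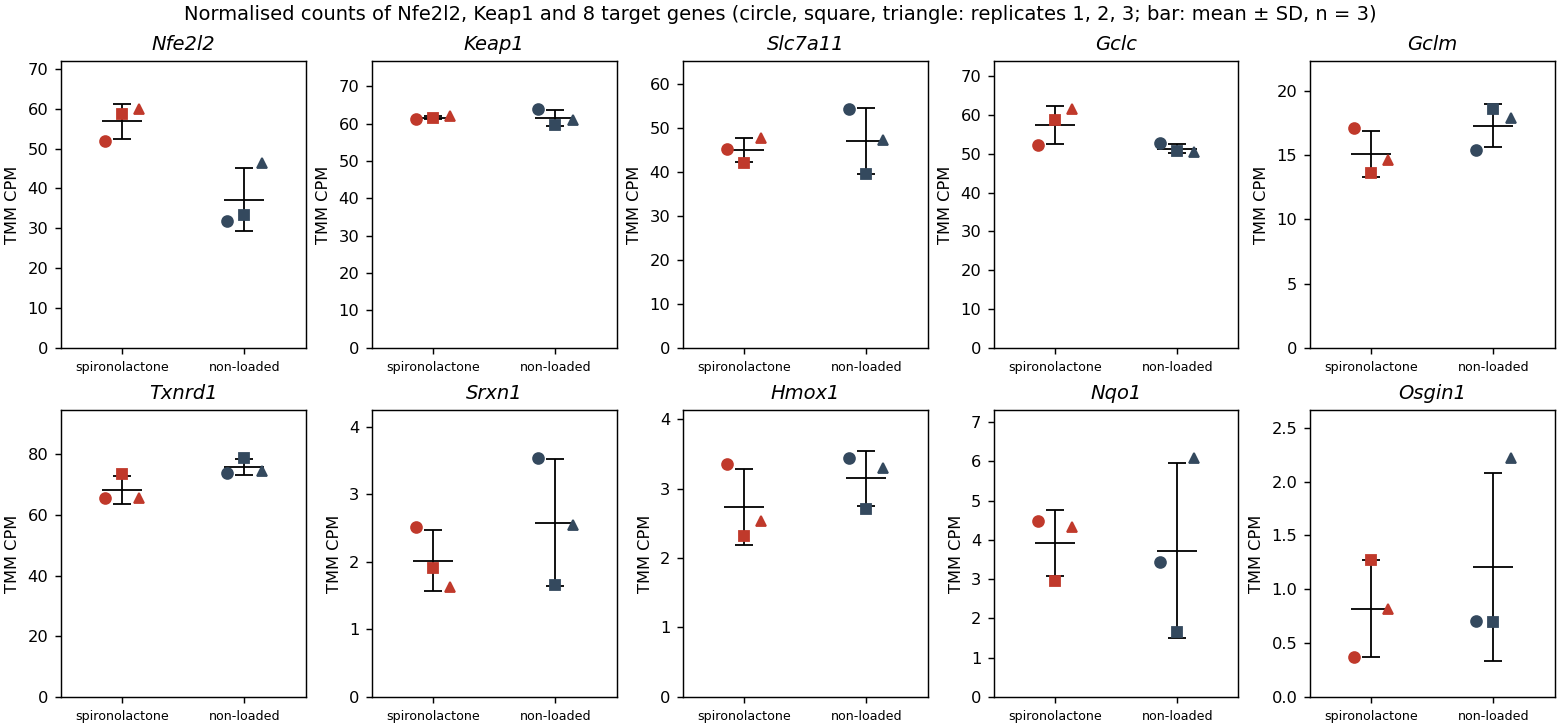
Normalised counts (TMM CPM, linear axes that start at 0) of the 10 genes in each library, spironolactone left and non-loaded right; symbols are replicates 1 to 3 and bars the mean ± SD. Nfe2l2 has its spironolactone libraries at 51.9 to 60.0 CPM, above 31.9 to 46.4 CPM in non-loaded libraries, while the groups overlap for Keap1 and for every target gene except Txnrd1.

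In bulk tissue, more transcript per cell and more cells of a type that carries the transcript cannot be told apart. Summed rod markers were lower in the same comparison: 4 of 11 tested members were called lower, Gnat1 and Rom1 among them, and the sums given above did not overlap. DESeq2 and limma-voom also called 4 rod genes lower. The count was 1 with robust shrinkage and on log2(TPM + 1), 2 without non-loaded replicate 1 and 0 with the title number. Of 10 tested Müller glia markers, 9 had a log2 fold change below 0 and 1 above it, with a median of −0.07. The one above 0 was Glul (0.04 ± 0.05, edgeR adjusted p = 0.811). By edgeR 2 of the 10 were called lower, where 0.763% of all tested genes were. These were Crym (log2 fold change −0.32 ± 0.06, adjusted p = 0.0104) and Dbi (−0.37 ± 0.09, 0.0464). That count was also 2 by DESeq2 and limma-voom, 0 on log2(TPM + 1), without spironolactone replicate 3 and with the title number, and 1 when spironolactone replicate 2 or either of the first pair of non-loaded replicates was left out. Markers of microglia and macrophages summed to 245.2 to 253.6 TPM in spironolactone libraries and 210.2 to 286.7 TPM in non-loaded libraries, with 0 of 14 called by edgeR, DESeq2 or limma-voom (2 in edgeR at an unadjusted p below 0.05, both higher). Endothelial markers summed to 351.0 to 365.2 TPM in spironolactone libraries and 341.5 to 388.8 TPM in non-loaded libraries, with 1 of 9 called by edgeR and DESeq2 (Vwf in edgeR, higher). Endothelial calls were 0 by limma-voom (2 at an unadjusted p below 0.05), with robust shrinkage and on log2(TPM + 1), and without spironolactone replicate 1 there was 1 lower and 0 higher. They were also 0 without spironolactone replicate 3, without any 1 of the non-loaded replicates and with the title number. Markers of the pigment epithelium, a layer that can adhere to a dissected retina, summed to 119.7 to 286.3 TPM in spironolactone libraries and 253.9 to 302.5 TPM in non-loaded libraries, with 0 of 8 called by the same tools (2 lower in edgeR at an unadjusted p below 0.05). Without spironolactone replicate 1, edgeR called 2 of the 8 lower. Of 2 tested erythrocyte genes, Hba-a2 was called higher by edgeR, with 0 calls by DESeq2, limma-voom (1 each at an unadjusted p below 0.05) or robust shrinkage (0). With 1 library left out, edgeR called 1 erythrocyte gene higher without spironolactone replicate 3 and 0 in every other case. The erythrocyte sums overlapped (373.4 to 684.9 TPM in spironolactone and 370.3 to 440.2 TPM in non-loaded libraries). The part of these shifts in the Nfe2l2 result was not tested.

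The sequence upstream of Nfe2l2 is shown because this is the gene of the group whose transcript changed. The 250 bases before its RefSeq start in the GRCr8 assembly (chr3:81029000-81029249, minus strand) hold 69.2% G and C, more than 90.8% of the upstream windows in the RefSeq table, and read as follows, 5′ to 3′.
Nfe2l2 upstream: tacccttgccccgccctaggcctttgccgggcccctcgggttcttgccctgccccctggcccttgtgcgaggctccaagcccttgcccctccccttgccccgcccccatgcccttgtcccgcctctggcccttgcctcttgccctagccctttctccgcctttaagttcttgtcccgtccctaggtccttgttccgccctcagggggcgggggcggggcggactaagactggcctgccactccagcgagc

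Promoter windows of 300 bases (250 before and 50 after the start) were found by symbol for 9 of the 10 genes, and Txnrd1 has 2 of them. Hmox1 had no window and was not searched. They were searched on both strands for the antioxidant response element core TGACNNNGC and for TGAGNNNGC, which covers the core of the Maf recognition element. One form or the other occurred in 27.1% of all 33469 windows of this length and in 4 of the 10 windows of these genes, those of Nfe2l2, Gclm and Srxn1 and 1 of the Txnrd1 windows. The sites are printed with the match in capitals, 10 bases on either side where the window allows, in the direction of the gene, because they show how near to the start of these genes such letters lie.
Nfe2l2 site, chr3:81028950-81028971, minus strand: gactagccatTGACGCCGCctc
Gclm site, chr2:213031953-213031981, plus strand: tgcggtttctGCTTAGTCAttgtcttcca
Txnrd1 site, chr7:22755964-22755992, minus strand: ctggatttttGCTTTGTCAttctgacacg
Srxn1 first site, chr3:161064684-161064712, plus strand: cccactgagaGCCGACTCAtcctcgctgg
Srxn1 second site, chr3:161064785-161064813, plus strand: tccgcgacctGCAAACTCAccctgagtca
Srxn1 last site, chr3:161064797-161064825, plus strand: aaactcacccTGAGTCAGCgacccgacgc

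The Nfe2l2 match begins at base 39 after the start and the others begin 172 (Gclm), 78 (Txnrd1), and 118, 17 and 5 (Srxn1) bases before it. Matches to TGACNNNGC occurred in 12.1% and to TGAGNNNGC in 17.2% of all windows, and the exact letters TGAGTCAGC of the last Srxn1 site in 0.4%. The 6 matches do not overlap. The letters TGATGNAA, a form of the element bound by ATF4, were in no window of the 9 genes searched and in 3.98% of all windows. Matches describe letters only, and elements outside these windows were not searched.

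Keap1, the gene of the NRF2 inhibitor, was the steadiest of the group. It measured 61.2, 61.4 and 62.0 CPM in spironolactone libraries, against 63.9, 59.7 and 60.9 CPM in non-loaded libraries. The groups overlapped and their means were 61.6 ± 0.43 CPM with spironolactone and 61.5 ± 2.21 CPM with non-loaded microspheres (log2 fold change 0.0028 ± 0.07, adjusted p = 0.991). The 95% interval of the fold ran from 0.908 to 1.11. Per length, the ratio of Nfe2l2 to Keap1 TPM was 1.19, 1.33 and 1.35 in spironolactone libraries, against 0.697, 0.783 and 1.07 in non-loaded libraries. This ratio did not overlap between groups. It was chosen with the Nfe2l2 values known and is given as a description, with no test.

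The glutathione genes did not move together. Slc7a11 encodes xCT, the light chain of the antiporter that brings cystine into the cell for glutathione synthesis in exchange for glutamate. It measured 45.2, 42.1 and 47.6 CPM in spironolactone libraries, against 54.3, 39.4 and 47.2 CPM in non-loaded libraries. The non-loaded values enclosed all 3 spironolactone values. The log2 fold change was −0.06 ± 0.10 (adjusted p = 0.827), with a 95% interval of the fold of 0.825 to 1.11.

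Gclc and Gclm encode the catalytic and the modifier subunit of glutamate-cysteine ligase, the rate-limiting enzyme of glutathione synthesis. Gclc measured 52.2, 58.7 and 61.6 CPM in spironolactone libraries, against 52.7, 50.8 and 50.6 CPM in non-loaded libraries. Spironolactone replicates 2 and 3 lay above the non-loaded libraries and replicate 1 among them (log2 fold change 0.16 ± 0.08, unadjusted p = 0.0512, adjusted p = 0.318). Gclm measured 17.1, 13.6 and 14.6 CPM in spironolactone libraries, against 15.4, 18.6 and 17.8 CPM in non-loaded libraries. Here the lowest values were those of spironolactone replicates 2 and 3, and the groups overlapped (−0.20 ± 0.13, adjusted p = 0.486). The ratio of Gclc to Gclm TPM averaged 1.78 ± 0.33 in spironolactone libraries and 1.38 ± 0.17 in non-loaded libraries (SD, n = 3 each), and the groups overlapped.

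Of the thioredoxin genes, Txnrd1 came nearest to a decrease. It encodes cytosolic thioredoxin reductase, the selenoenzyme that uses NADPH to keep thioredoxin reduced. It measured 65.4, 73.6 and 65.5 CPM in spironolactone libraries, against 73.9, 78.8 and 74.5 CPM in non-loaded libraries. All spironolactone values lay below all non-loaded values, and the log2 fold change of −0.15 ± 0.07 did not pass (unadjusted p = 0.0436, adjusted p = 0.296). Groups without overlap were found for 20.9% of all tested genes, and for 2 of the 9 here, Nfe2l2 and Txnrd1. Txnrd1 overlaps Eid3 and 3 lncRNA genes in the RefSeq annotation, and without knowledge of the strand setting in counting their reads cannot be told apart from its own.

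Srxn1 encodes sulfiredoxin, which restores overoxidised peroxiredoxins. It was low, with 27, 24 and 18 counts in spironolactone libraries, against 35, 19 and 31 counts in non-loaded libraries. The groups overlapped, at 2.02 ± 0.46 CPM with spironolactone and 2.58 ± 0.94 CPM with non-loaded microspheres (log2 fold change −0.34 ± 0.33, adjusted p = 0.677). The 95% interval of the fold, 0.484 to 1.28, spans a marked loss as well as a modest gain. Neither was excluded at these counts and this spread between libraries.

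Hmox1 and Nqo1, the usual reporter genes of NRF2 activity, were also expressed at a low level. Hmox1 encodes heme oxygenase, which breaks heme down to biliverdin, iron and carbon monoxide. It had 36, 29 and 28 counts in spironolactone libraries, against 34, 31 and 40 counts in non-loaded libraries. At 2.73 ± 0.55 CPM with spironolactone and 3.14 ± 0.39 CPM with non-loaded microspheres the groups overlapped (log2 fold change −0.20 ± 0.27, adjusted p = 0.776; fold interval 0.582 to 1.29). An lncRNA gene overlaps Hmox1 in the RefSeq annotation, and the same limit on strand applies.

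Nqo1 encodes a quinone reductase that uses NADH or NADPH. It had 48, 37 and 48 counts in spironolactone libraries, against 34, 19 and 74 counts in non-loaded libraries. Both the lowest and the highest value belonged to the non-loaded group, a 3.67-fold spread within it. The log2 fold change was 0.05 ± 0.35 (adjusted p = 0.963; fold interval 0.625 to 1.72).

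Osgin1, an oxidative stress-induced growth inhibitor gene, did not pass the filter. It had 4, 16 and 9 counts in spironolactone libraries, against 7, 8 and 27 counts in non-loaded libraries, and the groups overlapped. As with Nqo1, non-loaded replicate 3 held the highest value. Without the filter its log2 fold change was −0.55 (adjusted p = 0.734).

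**Figure D2:**
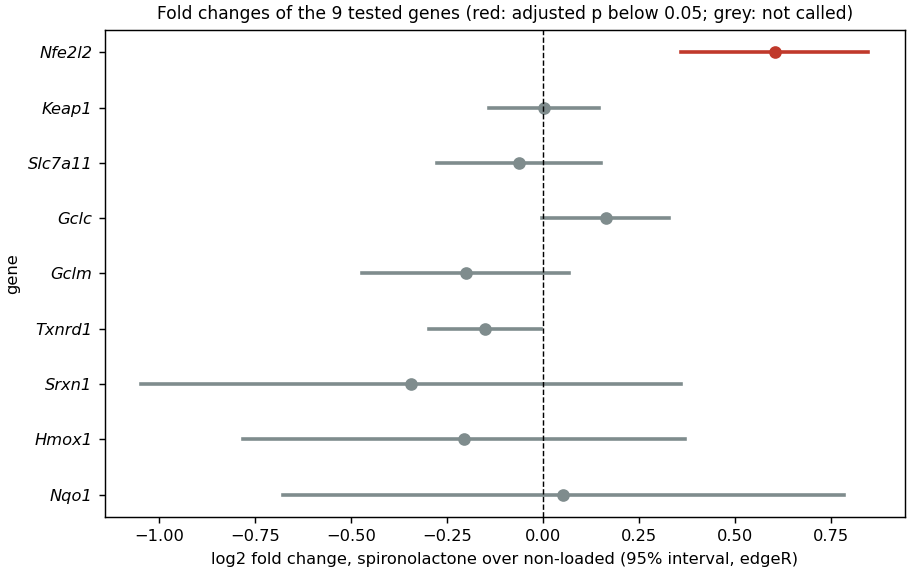
Log2 fold change (x axis, spironolactone over non-loaded) of the 9 tested genes with 95% intervals from edgeR; red marks an adjusted p below 0.05 and grey a gene not called. The interval of Nfe2l2 runs from 0.36 to 0.85, whereas those of Srxn1, Hmox1 and Nqo1 are the widest and span 0.

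The precision differed with the level. For Keap1, Slc7a11, Gclc, Gclm and Txnrd1 the upper ends of the 95% intervals of the fold were 1.11, 1.11, 1.26, 1.05 and 0.997, all below the lower end of the Nfe2l2 interval (1.285). For Nqo1 the upper end was 1.72, which includes the Nfe2l2 fold. The ratio of Nfe2l2 TPM to that of each of the 7 tested targets was higher with spironolactone for 7 of 7, by log2 differences of 0.39 (Nqo1) to 0.94 (Srxn1). The groups did not overlap for 6 of these 7 ratios. All share Nfe2l2, whose own groups did not overlap, so the ratios restate its values and are given as a description. Simulated counts for this comparison, with genes of mean log2 CPM above 3, recovered 43.2% of genes changed 1.25-fold and 90.4% of genes changed 1.5-fold. A call could thus miss a change of the smaller size in the well-expressed targets. Their 95% intervals included a 1.25-fold rise for Gclc, and not for Slc7a11, Gclm or Txnrd1. On the side of a loss, the interval of Gclm reached down to 0.722.

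TPM, which is per length, allows levels to be set side by side between genes. In spironolactone libraries Nfe2l2 was highest at 48.3 ± 2.78 TPM (SD, n = 3). Txnrd1 (38.1 ± 2.09), Keap1 (37.5 ± 0.72) and Gclc (36.4 ± 2.46 TPM) followed, with ranges that overlapped from each to the next. Gclm (20.8 ± 2.99), Slc7a11 (9.42 ± 0.66) and Srxn1 (6.47 ± 1.62 TPM) came next, each apart from its neighbour above. Srxn1, Nqo1 (5.07 ± 1.17) and Hmox1 (3.57 ± 0.81 TPM) overlapped in turn, and Osgin1 was lowest at 0.80 ± 0.43 TPM. In non-loaded libraries Txnrd1 led at 41.8 ± 0.79 TPM, before Keap1 (37.0 ± 1.88), Gclc (32.1 ± 1.11) and Nfe2l2 (31.4 ± 7.44 TPM). The range of Nfe2l2, 26.9 to 40.0 TPM, overlapped those of Gclc and of Keap1. From Gclm downwards the order was that of the spironolactone libraries, with Slc7a11 at 9.72 ± 1.68 TPM overlapping Srxn1 at 8.19 ± 3.06 TPM.

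Beyond the 10 genes, 6 lists of the NRF2 pathway were examined, with 98 tested genes out of 119 names, covering its regulators, glutathione use, thioredoxins and peroxiredoxins, NADPH supply, quinone and carbonyl enzymes, and heme and iron. By edgeR 0 of the 98 were called higher and 1 lower, with 4 higher and 11 lower at an unadjusted p below 0.05 (15.8% of all tested genes in either direction), and with a median log2 fold change of −0.05. Over all tested genes 1.87% were called higher and 0.763% lower. DESeq2 called 1 higher and 1 lower, and limma-voom 0 and 1. Genes counted on a further list, that of the ATF4 response, are not among the 98, and these counts depend on that placement.

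The gene called lower was Prdx2, which encodes a cytosolic peroxiredoxin that reduces hydrogen peroxide with electrons from thioredoxin. It measured 144.9, 143.5 and 133.4 CPM in spironolactone libraries, against 177.5, 174.4 and 166.8 CPM in non-loaded libraries. The groups did not overlap, and the log2 fold change was −0.30 ± 0.06 (adjusted p = 0.01). It did not pass without spironolactone replicate 2 (adjusted p = 0.0631), non-loaded replicate 1 (0.0621) or non-loaded replicate 2 (0.0513), or on log2(TPM + 1) (0.0662) or log2(TPM + 0.1) (0.0688). With the title number its log2 fold change was −0.045 (adjusted p = 0.9999). Of the same list of 13 genes, the mitochondrial and peroxisomal peroxiredoxin gene Prdx5 (−0.18 ± 0.07, adjusted p = 0.233), Prdx1 (−0.16 ± 0.07, 0.252) and the mitochondrial thioredoxin gene Txn2 (−0.15 ± 0.08, 0.338) had the next smallest p and were not called.

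Among 19 tested regulators of NRF2, 0 were called by edgeR (3 higher and 3 lower at an unadjusted p below 0.05). Without spironolactone replicate 1, edgeR called 2 of them higher. Cul3, the scaffold of the ubiquitin ligase that KEAP1 serves, averaged 289.0 ± 6.88 CPM in spironolactone libraries and 252.3 ± 12.9 CPM in non-loaded libraries (log2 fold change 0.20 ± 0.06, adjusted p = 0.091). DESeq2 called it (adjusted p = 0.0419) and limma-voom did not (0.0698). Btrc, part of a ligase that degrades NRF2 independently of KEAP1, had a log2 fold change of 0.18 ± 0.05 (adjusted p = 0.0953), and the small MAF gene Mafg one of −0.33 ± 0.12 (0.18).

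The list of glutathione synthesis and use held 0 calls among 26 genes (1 lower at an unadjusted p below 0.05; DESeq2 and limma-voom also 0; 1 lower in edgeR without spironolactone replicate 1), with a median log2 fold change of −0.06. Several of its glutathione transferase genes are close copies, so the division of their reads is uncertain. Ggt7 (−0.14 ± 0.07, adjusted p = 0.314), the glyoxalase gene Hagh (−0.19 ± 0.09, 0.346) and Chac2 (0.42 ± 0.21, 0.353), whose product degrades glutathione, had the smallest p. Chac1, the relative of Chac2, was counted on the ATF4 list instead and was called higher (1.82 ± 0.24, edgeR adjusted p = 0.000306). The 0 calls therefore hold for this list as drawn, without Chac1. NADPH supply held 0 calls among 9 genes by edgeR, DESeq2 and limma-voom (0 at an unadjusted p below 0.05). Its isocitrate dehydrogenase gene Idh1 was at −0.15 ± 0.07 (adjusted p = 0.332), with Rpia (−0.21 ± 0.14, 0.497) and Taldo1 (−0.09 ± 0.06, 0.524) of the pentose phosphate pathway after it.

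Quinone, carbonyl and xenobiotic enzymes also held 0 calls by the same tools, among 20 genes (1 lower at an unadjusted p below 0.05). The aldehyde reductase gene Akr1a1 (−0.16 ± 0.06, adjusted p = 0.161), the aldehyde dehydrogenase gene Aldh3a1 (0.58 ± 0.29, 0.359) and Osgin2 (−0.25 ± 0.14, 0.404) stood first by p. In heme and iron metabolism 0 of 11 were called by these tools (1 higher and 3 lower at an unadjusted p below 0.05). The smallest p belonged to the iron transporter gene Slc11a2 (−0.19 ± 0.07, adjusted p = 0.196), to Fech, which encodes the enzyme that inserts iron into heme (0.21 ± 0.08, 0.221), and to the transferrin receptor gene Tfrc (−0.17 ± 0.08, 0.296).

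**Figure D3:**
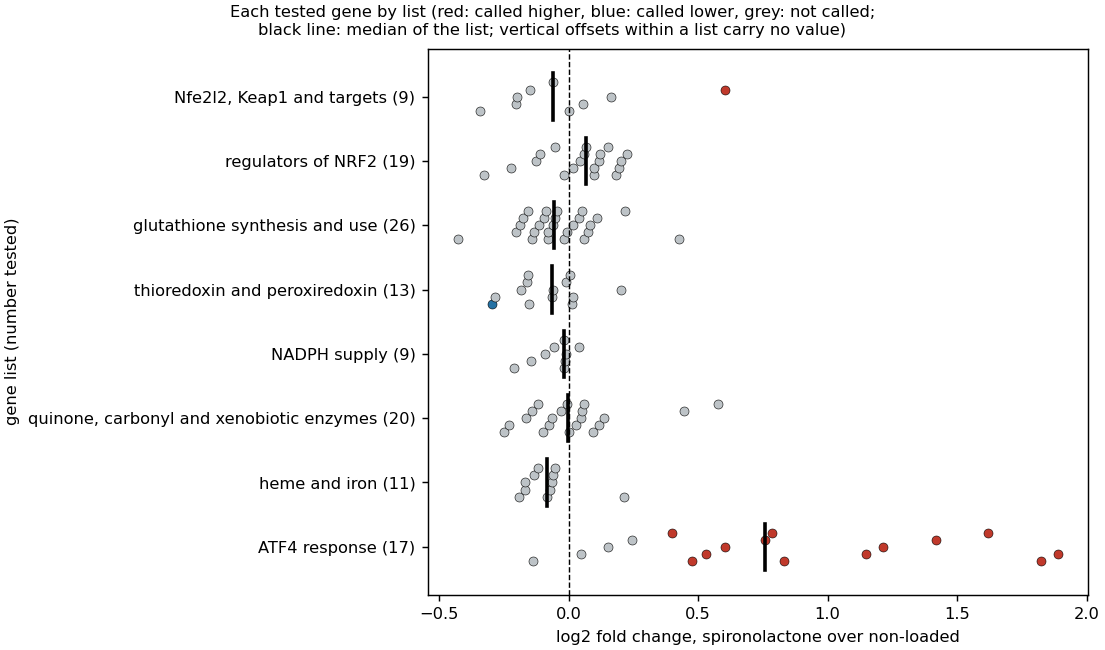
Log2 fold change (x axis, spironolactone over non-loaded) of each tested gene, by list; red and blue mark genes called higher and lower, black lines the list medians. Nfe2l2 and Prdx2 are the only called genes outside the ATF4 list, whose median is 0.76.

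ATF4 is the transcription factor of the response to amino acid shortage, and Slc7a11 is known as a target of ATF4 as well as of NRF2. A list of 17 tested ATF4 response genes (of 21 names), assembled with the changes of several members already known and so no independent evidence, held 13 genes called higher and 0 lower. Its median log2 fold change was 0.76. The count was 9 with robust shrinkage and lay between 11 and 13 when any one library was left out, and it was 0 with the title number in the model. Slc7a11 was not on that list. Asns, the asparagine synthetase gene, had 217.4, 240.4 and 278.0 CPM in spironolactone libraries, against 65.5, 66.5 and 106.9 CPM in non-loaded libraries. For Asns, as for Nfe2l2, non-loaded replicate 3 was the highest of its group. Atf4 itself was at 0.15 ± 0.06 (adjusted p = 0.187).

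Slc3a2 encodes the heavy chain that carries xCT and other amino acid transporters to the cell surface. It had 291.1, 317.9 and 314.8 CPM in spironolactone libraries, against 192.4, 188.3 and 227.5 CPM in non-loaded libraries (log2 fold change 0.60 ± 0.07, adjusted p = 0.000107). With the title number its log2 fold change was 0.17 (adjusted p = 0.9999). So the heavy chain gene rose while the xCT light chain gene was not called. The ratio of Slc3a2 to Slc7a11 TPM was 29.7, 34.8 and 30.5 in spironolactone libraries, against 16.3, 22.1 and 22.2 in non-loaded libraries. The groups did not overlap in this ratio, which was likewise chosen with the values known.

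**Figure D4:**
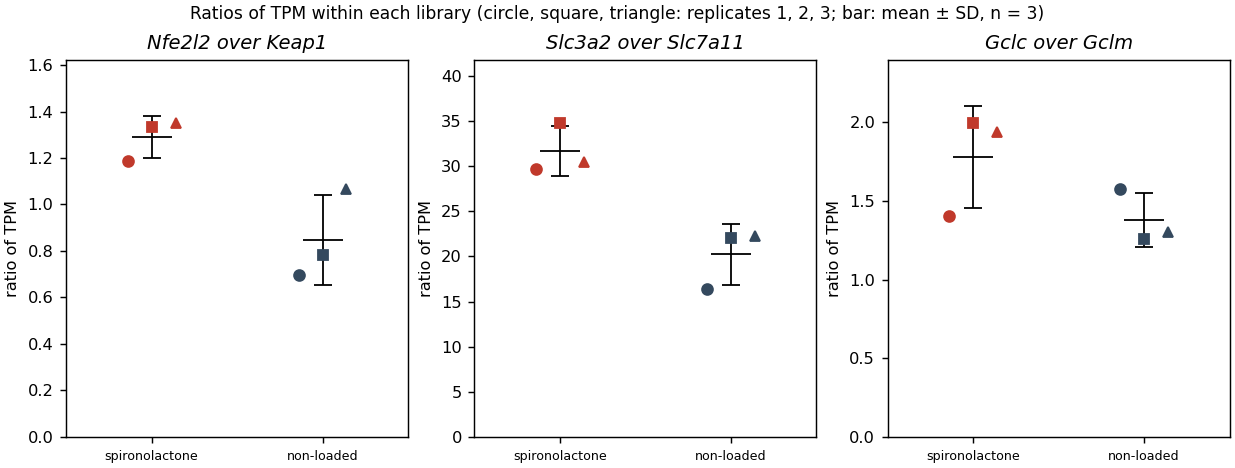
Ratios of TPM within each library for Nfe2l2 over Keap1, Slc3a2 over Slc7a11 and Gclc over Gclm (linear axes from 0), spironolactone left and non-loaded right, with the mean ± SD of 3 libraries. The groups are apart for the first pair of ratios and overlap for Gclc over Gclm.

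The profile of Nfe2l2 over the 6 libraries was matched against 9865 other tested genes of mean log2 CPM of at least 3. Likeness was the root mean square difference of log2 CPM after each gene was centred on its mean. The 5 nearest genes were Ttc21a (0.07), Trmo (0.07), Gpr137c (0.07), Aars (0.09), the cytosolic alanyl-tRNA synthetase gene, and Slc3a2 (0.09). Likeness was computed over the same libraries as the comparison, so a fold change near that of Nfe2l2 follows from the choice of these genes and is no separate result. The nearest genes to Slc7a11 were Naxd, Pkd1, Osgep, Hecw1 and Rnf213, with differences of 0.04 to 0.05.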

How the data were processed

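The members and lists were chosen with earlier results of these data known. Expected counts per gene were deposited by the authors in 1 RSEM table per sample, unnormalised, per the file headers; the same deposited tables hold TPM, which was used for levels, ratios and an alternative, and FPKM, which was not used. STAR 2.5.3a, RSEM 1.2.28, Trimmomatic, FastQC and rn6 are named in the submitters' processing notes without roles; neither the annotation version nor the use of strand is given in the sources used here.

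Counts were rounded, filtered with filterByExpr (13242 of 28358 genes kept) and compared with edgeR 4.0.16 in R 4.3.3 (two-sided quasi-likelihood F test, TMM scaling); p-values were adjusted by Benjamini-Hochberg across every tested gene and called below 0.05. SE is the log2 fold change over the root of F. Alternatives used RLE, total and upper quartile scaling, DESeq2 1.42.0, limma 3.58.1 (voom; trend on log2(TPM + 1) and log2(TPM + 0.1)), robust shrinkage, other filters, effective lengths, a title number covariate and each library left out. The fit was tested on simulated data (5 draws of 200 changed genes, the first keeping 13129 genes; 7.05% of calls false).

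The rule for named genes took all 10 members, the called genes of each pathway list with up to 3 more by p, of which the ATF4 list is given by examples, and the 5 nearest genes to Nfe2l2 and to Slc7a11. Asns, Chac1 and the marker genes are examples. Sequences are from RefSeq tables of GRCr8, another build than that of the counts. Some genes are not reported here by name, though list counts and sums include them.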

Additional observations from a re-analysis of the deposited data

How the results depend on the processing

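Nfe2l2 kept its direction under 17 of 18 alternatives and was called under 12 of them. The number of the 10 genes called higher was 0 on log2(TPM + 1), on log2(TPM + 0.1) (Nfe2l2 adjusted p = 0.0896) and with the title number as covariate, and 0 to 1 when libraries were left out; the number called lower was 0 throughout. Over all genes 247 were called higher and 101 lower. The counts were 439 and 163 without the filter, 82 and 18 on log2(TPM + 1), 79 and 16 on log2(TPM + 0.1), 0 and 0 with the title number (562 at an unadjusted p below 0.05), and 81 to 421 and 30 to 200 when 1 library was left out. Keap1 and the 7 tested targets were not called under any of the 18, though DESeq2 gave no adjusted p for Gclm, Srxn1, Hmox1 and Nqo1. Signs turned with the title number for Nfe2l2 (−0.25), Slc7a11 (0.079), Gclc (−0.16), Gclm (0.0007), Srxn1 (1.11), Hmox1 (0.56) and Nqo1 (−0.66). Keap1 turned with upper quartile scaling (−0.0047). When libraries were left out its values ran from −0.020 to 0.031, those of Slc7a11 from −0.18 (without non-loaded replicate 2) to 0.051 (without non-loaded replicate 1) and those of Nqo1 from −0.31 (without non-loaded replicate 2) to 0.63 (without non-loaded replicate 3). The cause was not tested. Srxn1, Hmox1, Nqo1 and Osgin1 had low counts, and between non-loaded libraries Nqo1 and Osgin1 varied with a CV of 59.8% and 72.5% in CPM; the parts of depth and of spread between libraries were not separated. No paired analysis was possible because the labels give no replicate number shared between the groups.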
